A study of Mus musculus with 96 samples.

Results

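The comparison set the brain against the peripheral organs in undisturbed mice. It used 47 of the 96 libraries of the series, which were the control (CON) libraries of forebrain (12), cerebellum (11), liver (12) and kidney (12). Each library held total RNA of 1 organ of wild-type C57BL/6 mice, which the study's methods describe as males aged 6 to 8 weeks kept on a cycle of light and dark. The study's own results section states that collection took place in constant darkness. Control mice had been left alone, whereas sleep-deprived (SD) mice had spent their resting phase awake in a slowly turning drum that held food and water. Collection began at CT4 (CT, circadian time) and went on in steps of 4 h until CT24, which gives 6 times, and each organ and time has 2 replicates. Both groups shared strain, genotype and sex, and whole organs or brain regions were used, so each value averages over all cell types in the piece. The control cerebellum library of CT8 replicate 1 was left out when the comparison was set. Its counts on antisense genes stood apart from those of the other cerebellum libraries and of the control libraries used. For kidney, groups and times were taken from the sample titles. The listed time points go against the titles in 20 of the 24 kidney libraries, and so does the listed treatment of most kidney SD libraries, whereas every kidney library titled CON is also listed as control. The study calls the 2 replicates biological, whereas the labels do not tie libraries to animals, so p-values measure the spread between these libraries.

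The genes of interest were those for which both brain regions lay above, or both below, both peripheral organs. Among 27448 genes with enough counts to be tested, the fitted means placed both brain regions above both peripheral organs for 10452 genes and below them for 8585, and 8411 genes were interleaved. A gene was then called when its 4 contrasts (forebrain or cerebellum against liver or kidney, each averaged over the 6 times) had 1 sign, each past an absolute log2 fold change of 1 at an adjusted p below 0.05. The smallest of the 4 absolute changes is the margin, which is given with the sign of the contrast, brain minus periphery. Levels are given in CPM, the counts of a library scaled to its normalised total, and they can be compared between organs for 1 gene but not between genes.

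Neurons and glia use genes that liver and kidney cells keep silent, such as those for synaptic vesicles, ion channels and myelin. Liver and kidney are epithelial organs that share a large metabolic programme, which includes the making of glucose and the breakdown of fatty acids and amino acids. A repressor named REST holds neuronal genes off in many other cells by binding a DNA element called RE1. In liver and kidney cells, the nuclear factors HNF1 and HNF4 bind and activate many metabolic genes.

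Called genes were numerous in both directions. In all, 5717 genes were higher in brain, which is 20.8% of the genes tested, and 4178 genes were lower in brain, which is 15.2%. The calls took in 54.7% of the genes placed above and 48.7% of those placed below. Every brain library lay above every peripheral library for 3953 of the genes called higher (69.1%), against 17.2% of all genes tested. Every brain library lay below every peripheral library for 3174 of the genes called lower (76.0%), against 15.1% of all genes tested. The median margin was 3.26 log2 for genes higher in brain and 2.18 log2 for genes lower in brain, and the margin passed 5 log2 for 1643 and 490 genes. Normalisation set part of this split. The median over all genes of the mean of the 4 contrasts was 0.22 log2 with TMM factors, 0.34 log2 with DESeq2 size factors and 0.60 log2 with library sizes alone, and the share of calls that were higher in brain was 57.8%, 61.1% and 66.1% in turn. As these are whole organs, fewer cells of a type and less RNA per cell cannot be told apart.

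**Figure D1:**
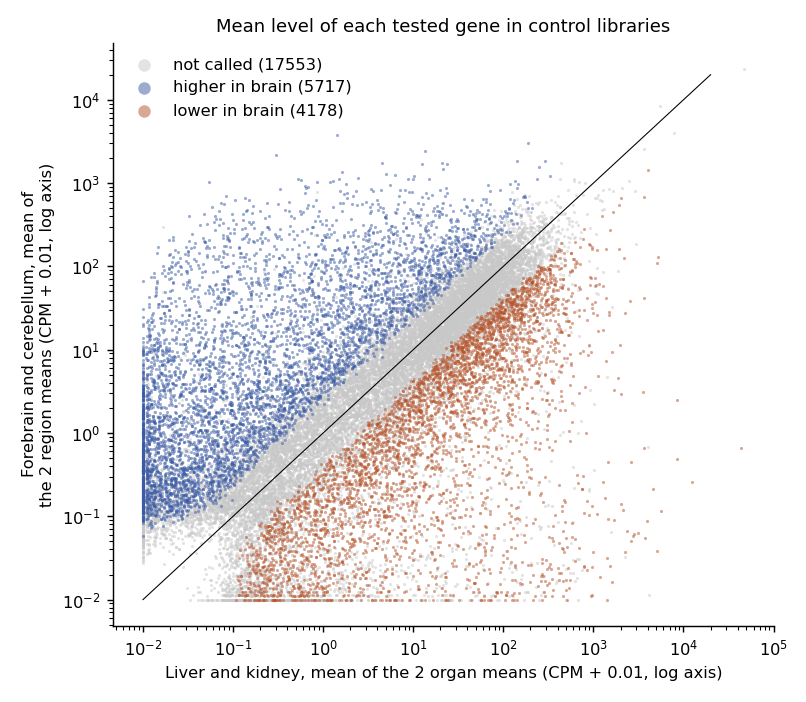
Mean normalised level of each gene tested in control liver and kidney (horizontal axis) against that in control forebrain and cerebellum (vertical axis), both as CPM + 0.01 on log axes, each the mean of the 2 organ means. Each point is 1 gene, coloured for the 5717 genes called higher in brain and the 4178 called lower in brain, with the remaining genes in grey and a line for equal levels.

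Marker lists were checked against the labels. The summed level of 10 hepatocyte markers lay between 96970 and 155265 CPM in liver and between 53.5 and 194 CPM in kidney. It was at most 95.4 CPM in forebrain, but reached 1383 CPM in cerebellum, where 5 of 11 libraries passed 100 CPM and 2 passed 1000 CPM. The summed level of 11 kidney markers lay between 23297 and 30337 CPM in kidney and at most 8.09 CPM in liver. Forebrain markers summed to 485 CPM or more in every forebrain library and to 67.3 CPM or less in every cerebellum library, and cerebellum markers summed to 2735 CPM or more in cerebellum and to 88.1 CPM or less in forebrain. Genes of the choroid plexus, the tissue that makes cerebrospinal fluid, summed to between 18.7 and 1635 CPM in cerebellum, with 5 of 11 libraries over 100 CPM. Liver and kidney express genes of that list too, with sums of 4218 to 7732 CPM and 1911 to 2280.2 CPM. Ttr stands in both the hepatocyte list and the choroid plexus list, so these sums are not separate checks. The part of Ttr in the cerebellum sums was not tested. Depth ranged from 26.0 to 58.3 M counts per library.

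Promoter sequences showed the RE1 and HNF elements in few members. Promoters of 300 bases (250 before and 50 after the start of the gene, RefSeq, GRCm38.p6) were searched on both strands for a strict RE1 (CAGCACC, 2 free bases, GGACAG), an HNF1 element (GTTAAT, 1 free base, ATTA) and an HNF4 element (CAAAGTCCA). None of these letter strings is contained in another. The RE1 letters stood in 9 of 3386 promoters of genes higher in brain (0.266%, in 8 genes), in 0 of 3196 promoters of genes lower in brain and in 12 of 32851 promoters in all (0.0365%). The HNF1 letters stood in 9 promoters of genes lower in brain (0.282%), in 1 promoter of a gene higher in brain (0.0295%) and in 46 promoters in all (0.140%). The HNF4 letters stood in 25 promoters of genes lower in brain (0.782%), in 11 of genes higher in brain (0.325%) and in 156 in all (0.475%). These are descriptions, and a match is not shown to be a bound site.

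The following 3 promoters of genes higher in brain hold the RE1 letters, shown in capitals on the opposite strand. The promoters are printed to show where the letters lie, and binding of REST to them was not tested. They were chosen after their values were seen. Fbll1, a fibrillarin-like gene, has its promoter at chr11:35798835-35799134, minus strand, and its margin was 10.34 log2. Sptbn4, a spectrin of the axon initial segment, has its promoter at chr7:27396149-27396448, minus strand, and its margin was 9.53 log2. Hrh3, the histamine H3 receptor, has its promoter at chr2:180104358-180104657, minus strand, and its margin was 6.30 log2.
Fbll1: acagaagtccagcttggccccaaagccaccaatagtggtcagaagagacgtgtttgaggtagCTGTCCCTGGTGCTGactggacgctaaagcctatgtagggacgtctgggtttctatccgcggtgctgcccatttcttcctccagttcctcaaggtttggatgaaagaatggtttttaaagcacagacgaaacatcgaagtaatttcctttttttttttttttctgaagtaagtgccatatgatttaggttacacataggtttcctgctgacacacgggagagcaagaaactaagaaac
Sptbn4: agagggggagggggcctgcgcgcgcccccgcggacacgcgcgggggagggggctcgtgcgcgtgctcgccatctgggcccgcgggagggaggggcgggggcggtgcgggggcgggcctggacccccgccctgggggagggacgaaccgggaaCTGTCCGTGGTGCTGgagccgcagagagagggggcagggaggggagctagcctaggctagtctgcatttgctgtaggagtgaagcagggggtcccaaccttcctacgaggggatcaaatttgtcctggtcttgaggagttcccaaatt
Hrh3: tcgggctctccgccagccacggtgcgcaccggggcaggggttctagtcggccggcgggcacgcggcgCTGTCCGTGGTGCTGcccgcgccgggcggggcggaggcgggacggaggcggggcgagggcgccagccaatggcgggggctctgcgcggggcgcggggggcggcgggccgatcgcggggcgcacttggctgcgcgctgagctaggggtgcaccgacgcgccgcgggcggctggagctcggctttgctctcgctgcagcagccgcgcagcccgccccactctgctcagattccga

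For genes lower in brain, 2 promoters with HNF1 letters and 2 with HNF4 letters in capitals are shown for the same reason, also chosen after their values were seen. Pcbd1, a cofactor of HNF1 and a recycling enzyme of tetrahydrobiopterin, has its promoter at chr10:61089081-61089380, plus strand, and its margin was -5.83 log2. Prodh2, which oxidises hydroxyproline, has its promoter at chr7:30493408-30493707, plus strand. Agxt2, a mitochondrial aminotransferase, has its promoter at chr15:10358283-10358582, plus strand. Pipox, a peroxisomal oxidase of pipecolic acid and sarcosine, has its promoter at chr11:77893823-77894122, minus strand.
Pcbd1: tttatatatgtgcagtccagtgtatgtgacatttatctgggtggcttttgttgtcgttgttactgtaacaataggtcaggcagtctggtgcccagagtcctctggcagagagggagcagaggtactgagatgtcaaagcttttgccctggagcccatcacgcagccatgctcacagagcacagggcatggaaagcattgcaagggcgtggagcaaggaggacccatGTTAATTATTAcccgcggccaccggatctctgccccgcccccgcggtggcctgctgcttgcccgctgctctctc
Prodh2: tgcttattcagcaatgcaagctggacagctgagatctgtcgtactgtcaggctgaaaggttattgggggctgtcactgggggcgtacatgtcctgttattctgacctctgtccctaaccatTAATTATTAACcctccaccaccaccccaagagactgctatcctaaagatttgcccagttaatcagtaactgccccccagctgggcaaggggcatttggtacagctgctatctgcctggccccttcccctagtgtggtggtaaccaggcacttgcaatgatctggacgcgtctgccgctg
Agxt2: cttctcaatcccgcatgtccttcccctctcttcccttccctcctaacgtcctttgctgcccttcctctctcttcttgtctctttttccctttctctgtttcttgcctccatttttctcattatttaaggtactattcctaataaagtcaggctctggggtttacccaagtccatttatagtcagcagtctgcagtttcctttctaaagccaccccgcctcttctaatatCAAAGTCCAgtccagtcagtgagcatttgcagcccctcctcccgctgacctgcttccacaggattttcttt
Pipox: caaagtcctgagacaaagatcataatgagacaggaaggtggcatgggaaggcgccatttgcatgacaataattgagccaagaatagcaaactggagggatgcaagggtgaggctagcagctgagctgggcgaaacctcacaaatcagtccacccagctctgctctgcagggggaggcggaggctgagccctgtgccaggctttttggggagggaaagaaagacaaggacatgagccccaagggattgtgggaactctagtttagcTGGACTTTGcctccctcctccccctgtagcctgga

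The last 3 of these genes had little or no RNA in brain. Prodh2 (chr7:30493622-30513402) had 0 counts in all 23 brain libraries, and its lowest, median and highest levels were 6.26, 7.01 and 8.56 CPM in liver and 2.64, 3.54 and 4.83 CPM in kidney. Agxt2 (chr15:10358532-10410153) lay at 105, 165 and 189 CPM in liver and 106, 111 and 126 CPM in kidney, and at no more than 0.0735 CPM in forebrain and 0.0558 CPM in cerebellum. Pipox (chr11:77880615-77894096) lay at 189, 280.5 and 321 CPM in liver and 201, 217 and 257 CPM in kidney, against 0.0772, 0.308 and 1.19 CPM in forebrain and 0.602, 0.806 and 1.297 CPM in cerebellum. Groups did not overlap for any of these 3 genes.

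Some of the regulators themselves differed between the organs. Rest (chr5:77265491-77286432), which encodes the repressor of RE1 sites, was lower in brain by 8.24-fold between the nearest organs, and its margin was -3.03 log2 (largest adjusted p = 1.00e-27). Its lowest, median and highest levels were 7.51, 9.45 and 11 CPM in forebrain, 6.13, 8.39 and 10.5 CPM in cerebellum, 52.9, 79.5 and 107 CPM in liver and 90.2, 100.1 and 109 CPM in kidney, and the 2 sides did not overlap. Of 14 tested genes of RE1 silencing and of the control of neuronal splicing, 2 were higher in brain and 6 lower. Over all genes tested, 20.8% were higher and 15.2% lower. The median over the list was -0.69 log2 beside 0.22 over all genes tested. The corepressors were not called, with margins of -0.71 log2 for Rcor1 and 0 for Rcor2 and Sin3a, whose organs were interleaved.

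Splicing regulators went in both directions. Srrm4, which promotes the inclusion of small neuronal exons, lay at 47.6, 67.6 and 81.5 CPM in forebrain and 147, 174 and 208 CPM in cerebellum, against 2.18, 6.78 and 8.73 CPM in liver and 0.377, 0.622 and 0.959 CPM in kidney. Ptbp2, the neuronal form of the polypyrimidine tract binding protein, was higher in brain by 4.07-fold. Its broadly expressed relative Ptbp1 was lower by 4.56-fold, with levels of 21.9 to 29.7 CPM in forebrain, 27.4 to 33.2 CPM in cerebellum, 112 to 162 CPM in liver and 136 to 169 CPM in kidney. The epithelial splicing regulators Esrp2 and Esrp1 were lower by 102-fold and 6.96-fold. Rbm47, another RNA-binding protein of epithelia, was lower by 64.8-fold, and its cerebellum levels of 0.211, 1.15 and 9.56 CPM varied over the same libraries as the choroid plexus genes, whose part in them was not tested.

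Among HNF factors and nuclear receptors, 14 of 17 tested were lower in brain and 0 higher, beside 15.2% and 20.8% of all genes tested. The list median was -7.40 log2 beside 0.22 over all genes. Hnf4a (chr2:163506808-163572910), a nuclear factor that defines hepatocytes and proximal tubule cells, lay at 864, 1057 and 1229 CPM in liver and 772, 870.0 and 1067 CPM in kidney. All forebrain libraries together held 7 counts of it and all cerebellum libraries 5 counts, and the nearest organs differed by 56658-fold. Nr1h4, the bile acid receptor FXR, was lower by 506-fold, and Nr1i2, the drug-sensing receptor PXR, by 325-fold. Foxa1, a pioneer factor, was lower by 116-fold and lay at 35.4, 43.0 and 58.5 CPM in liver and 0.159, 0.956 and 4.25 CPM in kidney. Without forebrain CT24 replicate 1 its fold was 179 (95% counting interval 61.1 to 866). The 3 not called were Foxa2 and Onecut1, with medians of 46.7 and 9.04 CPM in liver and 0 in kidney, and Onecut2, with 238 CPM in liver and 0.0410 CPM in kidney. Their kidney levels thus lay with those of brain.

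The 10 genes with the largest margins higher in brain, among those at 10 CPM or more in both brain regions, included Snap25, Kcnj6, Cplx1, Myt1l, Slc32a1, Mobp and the noncoding Gm3764. Snap25 (chr2:136713453-136782428), a SNARE protein that drives the fusion of synaptic vesicles, lay at 784, 1145 and 1470.5 CPM in forebrain and 770.1, 939 and 983 CPM in cerebellum. It had a median of 0 in liver and kidney, with 23 counts in all liver libraries and 8 counts in all kidney libraries. The nearest organs differed by 12851-fold.

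Inhibitory transmission was represented among them. Slc32a1 (chr2:158610767-158615748), which loads GABA and glycine into vesicles, lay at 42.0, 53.1 and 126 CPM in forebrain and 63.2, 66.6 and 77.4 CPM in cerebellum. It had 0 counts in all 24 peripheral libraries, so it was at least 7018-fold higher in brain against a floor of 3 counts over the liver libraries.

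Ion channels were also among them. Kcnj6 (chr16:94748636-94997701), a potassium channel opened by G proteins, lay at 139, 258 and 313 CPM in forebrain and 181, 215 and 244 CPM in cerebellum and was higher by 13749-fold.

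Other roles were held by 4 more. Cplx1 (chr5:108518554-108550024), a complexin that clamps vesicle fusion, was higher by 8157-fold, and Myt1l (chr12:29528384-29923213), a transcription factor that represses non-neuronal genes, by 4311-fold. Mobp (chr9:120149707-120181484), a myelin protein of oligodendrocytes, lay at 65.2, 302 and 533 CPM in forebrain and 169, 335 and 459 CPM in cerebellum and was higher by 1092-fold. Gm3764 (chr3:88206813-88229959), a long intergenic noncoding RNA, lay at 63.5, 117 and 121 CPM in forebrain and 132, 154 and 203 CPM in cerebellum and was higher by 5582-fold. For all 10 genes the sides did not overlap, the call held at each of the 6 times and in the sleep-deprived libraries, and the largest adjusted p was 7.19e-17.

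Nearly all of the small liver signal of these 10 genes came from 1 library. Liver CT16 replicate 2 held 169 of their 189 liver counts, among them 88 of 92 for Mobp and 20 of 23 for Snap25. Without that library the fold of Mobp was 23017, that of Snap25 57185, that of Myt1l 18905 and that of Kcnj6 21279.9. Cplx1 and Gm3764 then rested on 2 counts, with ratios of 37874 (95% counting interval 10485 to 312739) and 15344 (95% counting interval 4248 to 126698). The folds of these genes are therefore set by few peripheral counts, while the calls were present in all 46 fits that left out 1 library.

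**Figure D2:**
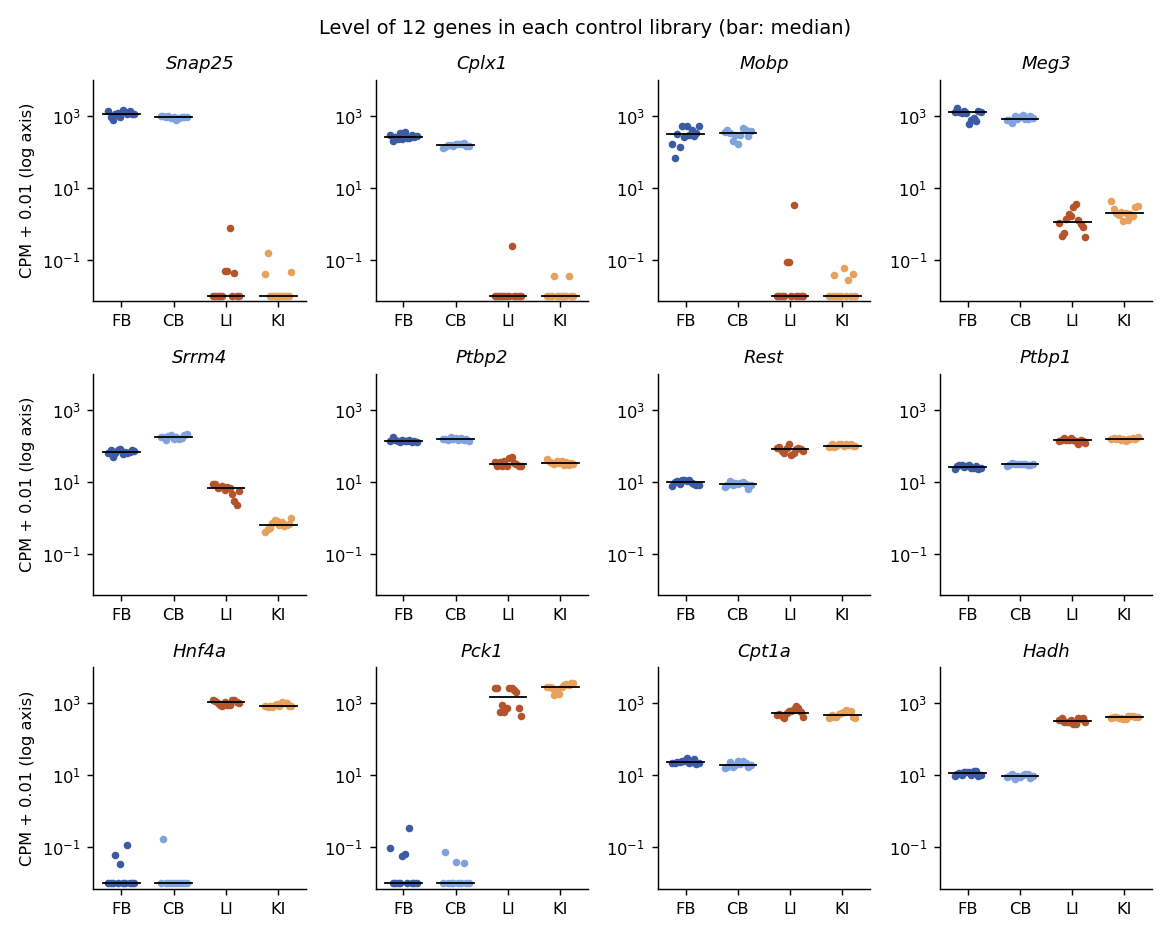
Level of 12 genes in each of the 47 control libraries (vertical axis, CPM + 0.01 on a log axis), by organ, with FB for forebrain, CB for cerebellum, LI for liver and KI for kidney. Each point is 1 library and each bar a median, and the brain and peripheral points of these genes do not meet.

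In the synaptic vesicle list, 21 of 22 genes were higher in brain and 0 lower, beside 20.8% and 15.2% of all genes tested. The list median was 5.80 log2. Sv2b, a vesicle glycoprotein, lay at 317, 638 and 796 CPM in forebrain and 191, 223 and 258 CPM in cerebellum, and at no more than 0.409 CPM in liver and 0.0872 CPM in kidney. Rims1, a scaffold of the release site, was higher by 1299-fold. Syt1, the calcium sensor of release, was nearest to liver, where it lay at 5.74, 18.1 and 31.4 CPM against 0.181 to 0.549 CPM in kidney. Stx1a, a SNARE protein of the plasma membrane, was the exception, with 74.6, 154 and 196 CPM in forebrain but 9.27, 10.1 and 11.1 CPM in cerebellum, the latter below the 11.6 to 18.2 CPM of liver.

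All 20 genes of the neuronal cytoskeleton and RNA-binding list were higher in brain, beside 20.8% of all genes tested. The list median was 9.29 log2. Ina, a neuronal intermediate filament, lay at 118, 137 and 151 CPM in forebrain and 111, 118 and 127 CPM in cerebellum and was higher by 4738-fold, or by 14668-fold without liver CT16 replicate 2. Stmn3, which regulates microtubules, was higher by 3459-fold, Gap43, a growth cone protein, by 1755-fold, and Elavl4, a neuronal RNA stabiliser, by 1584-fold. The smallest margin in the list was 1.01 log2, for Mapt, which encodes tau. In the sleep-deprived libraries 19 of the 20 were called.

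All 19 sodium, calcium and HCN channel genes were likewise higher, beside 20.8% of all genes tested, with a median of 7.06 log2. Scn1a and Scn2a, which encode pores of neuronal sodium channels, were higher by 1632-fold and 859-fold. Scn2a lay at 600.1, 742 and 850.2 CPM in forebrain and 702, 738 and 837 CPM in cerebellum, and both regions thus had like levels. Cacna1b, the pore of the N-type calcium channel, was higher by 359-fold. The smallest margin was 1.15 log2, for Scn3a.

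Glial markers were mostly higher as well. Of 15 astrocyte genes, 11 were higher in brain and 1 was lower, beside 20.8% and 15.2% of all genes tested. The list median was 4.81 log2. Ntsr2, Gjb6 and Gfap, an astrocytic filament protein, were higher by 427-fold, 109-fold and 105-fold, and without kidney CT24 replicate 2 the fold of Ntsr2 was 671. Gfap varied among forebrain libraries, with 40.7, 105 and 182 CPM. Slc1a3, a glutamate transporter, was higher by 41.1-fold. Aldh1l1, a folate enzyme used as an astrocyte marker within brain, was lower, at 37.4, 41.3 and 49.9 CPM in forebrain and 27.1, 32.9 and 36.7 CPM in cerebellum against 1095, 1774 and 1988 CPM in liver and 396, 426 and 469.6 CPM in kidney. The organs were interleaved for Glul, Fgfr3 and Slc4a4, the last with 932 CPM in cerebellum and 2219 CPM in kidney as medians.

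Of 17 tested oligodendrocyte genes, 14 were higher in brain and 0 lower, beside 20.8% and 15.2% of all genes tested. The list median was 6.61 log2. Ermn, Olig2 and Mog were higher by 1027-fold, 1288-fold (95% counting interval 357 to 10639) and 458-fold. The fold of Ermn was 2099 without liver CT24 replicate 2, and that of Olig2 3988 (95% counting interval 716 to 157537) without liver CT16 replicate 2. Of the 3 genes not called, 1 lay lower in both brain regions than in both peripheral organs, with a margin of -0.44 log2. Kidney levels were high for Mal and Ugt8a. Mal, a lipid raft protein of myelin and of kidney tubules, had medians of 116 CPM in forebrain, 94.7 CPM in cerebellum and 182 CPM in kidney, but 0.681 CPM in liver. Ugt8a, which makes the galactolipids of myelin, had medians of 53.3 CPM in forebrain and 126 CPM in kidney. Myelin genes varied widely among forebrain libraries, with list sums of 867 to 5030 CPM against 1975 to 4774 CPM in cerebellum. Sox10 was listed at 0 counts in every library and was not tested.

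Immune and vascular lists were split. Of 20 microglia and macrophage genes, 1 was higher in brain and 5 were lower, beside 20.8% and 15.2% of all genes tested. In the sleep-deprived libraries 2 were higher and 3 lower. The higher count became 2 with DESeq2 size factors, 2 with the DESeq2 test and 4 with library sizes alone. Fcrls, a microglial receptor, was the 1 higher, with a margin of 1.13 log2. The lower genes included Marco, Cd5l, Vsig4 and Timd4, markers of Kupffer and other tissue macrophages. Cd5l lay at 303, 568 and 732 CPM in liver against 0.0264, 0.212 and 0.656 CPM in kidney and at most 0.0850 CPM in forebrain. Cx3cr1 was not called, with medians of 41.1 CPM in forebrain, 9.51 CPM in cerebellum, 3.91 CPM in liver and 11.1 CPM in kidney. Its forebrain level thus lay above the other 3 organs and its cerebellum level below kidney.

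Of 19 endothelial genes, 2 were higher in brain and 7 lower, beside the same shares of all genes. Slco1c1, the thyroxine transporter of brain vessels, was higher by 152-fold, and Abcb1a, the drug efflux pump P-glycoprotein, lay at 31.0, 33.5 and 38.5 CPM in forebrain and 23.0, 25.1 and 28.6 CPM in cerebellum against 3.98, 7.78 and 10.2 CPM in liver and 5.89, 7.74 and 9.44 CPM in kidney. Plvap, which forms the diaphragms of leaky vessels, was lower by 11.4-fold, Eng by 6.42-fold, Kdr, a receptor for VEGF, by 5.402-fold and Cdh5, the cadherin of endothelial junctions, by 4.17-fold. Library sizes alone left 5 of the 7 lower calls. All 5 tested erythroid genes were lower in brain, beside 15.2% of all genes tested. Their summed level was 13.4 to 61.2 CPM in brain libraries and 155 to 439 CPM in peripheral libraries. The part of blood in other results was not tested.

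**Figure D3:**
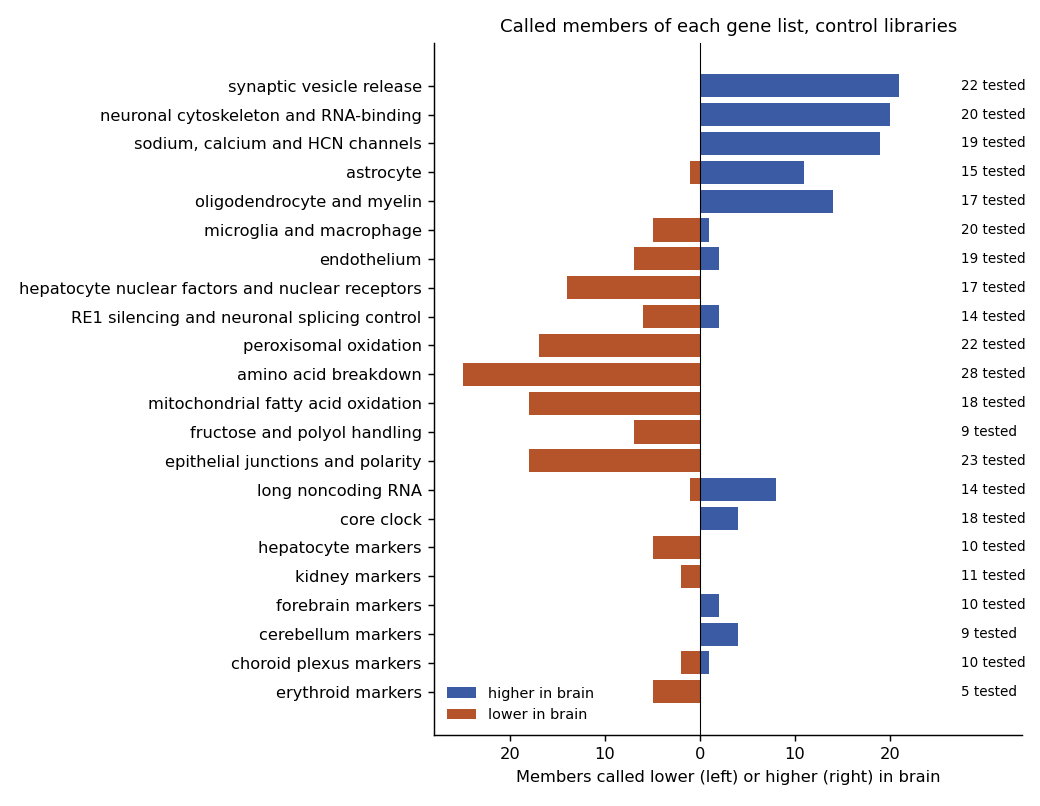
Number of tested members of each gene list that were higher or lower in brain in the control libraries (horizontal axis, number of genes, with lower to the left and higher to the right of 0). The number tested stands at the right of each bar. Over all genes tested, 20.8% were higher and 15.2% lower. The synaptic, cytoskeletal and channel lists lie wholly or nearly so on the higher side, and the metabolic, epithelial and HNF lists on the lower side.

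The 10 genes with the largest margins lower in brain, among those at 10 CPM or more in liver and kidney, were Ugt3a2, Keg1, Hnf4a, Pck1, Cyp4a10, Cyp4a14, Sult1d1, G6pc, Acsm1 and Aadac. Glucose production was represented by Pck1 and G6pc. Pck1 (chr2:173153048-173159273), the cytosolic PEP carboxykinase, lay at 441, 1494 and 2714 CPM in liver and 1696, 2904 and 3789 CPM in kidney, and G6pc (chr11:101367561-101377903), which releases free glucose, at 123, 498 and 718 CPM in liver and 248, 476 and 674 CPM in kidney. Both had a median of 0 in forebrain and cerebellum, and they were lower in brain by 34193-fold and 12789-fold. Of the 20 forebrain counts of Pck1, 13 came from forebrain CT20 replicate 1, without which its fold was 89015, and the fold of G6pc was 20785 without forebrain CT20 replicate 2.

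Conjugating enzymes were next. Ugt3a2 (chr15:9335550-9370955), a glycosyltransferase, lay at 497, 653 and 771 CPM in liver and 1139, 1266 and 1555 CPM in kidney, with 0 counts in forebrain and 1 count in cerebellum. Liver exceeded cerebellum by 241104-fold (95% counting interval 43273 to 9523100). Sult1d1 (chr5:87554645-87569027), a sulfotransferase, had 1 count in all of brain and was lower by 63603-fold (95% counting interval 11416 to 2512190), and Keg1 (chr19:12695786-12719902), a glycine acyltransferase relative named for kidney, also had 1 and was lower by 187969-fold (95% counting interval 33737 to 7424380). Without the library that held the 1 count, Ugt3a2, Sult1d1 and Keg1 were at least 93686-fold, 19382-fold and 57089-fold lower against the floor.

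Fatty acid enzymes completed the group. Cyp4a10 (chr4:115518264-115533649) and Cyp4a14 (chr4:115486200-115496142), which hydroxylate fatty acids at their end, are neighbours on chromosome 4 with close relatives, so their counts depend on uniquely placed reads. Cyp4a14 lay at 72.2, 122 and 377 CPM in liver and 86.0, 111 and 161 CPM in kidney and had 0 counts in all brain libraries, which makes it at least 16582-fold lower against a floor of 3 counts over the forebrain libraries. Cyp4a10 had 1 count in brain and was lower by 93644-fold (95% counting interval 16807 to 3698730). Acsm1, an acyl-CoA synthetase of mitochondria, and Aadac, an esterase, were lower by 54347-fold (95% counting interval 9754 to 2146580) and 23194-fold (95% counting interval 7936 to 112468). Without the library that held their 1 forebrain count, Cyp4a10 and Acsm1 were at least 28451-fold and 16561-fold lower, and without forebrain CT20 replicate 1 the fold of Aadac was 63398 (95% counting interval 11379 to 2504110). For these 10 genes too the sides did not overlap, the calls held at all 6 times and in the sleep-deprived libraries, and the largest adjusted p was 1.12e-12.

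All 18 genes of mitochondrial fatty acid oxidation were lower in brain, beside 15.2% of all genes tested. The list median was -3.67 log2, with margins from -4.93 to -1.72 log2. Cpt2 and Cpt1a, which carry fatty acids into mitochondria, were lower by 31.0-fold and 21.2-fold. Cpt1a lay at 20.98, 23.7 and 30.5 CPM in forebrain and 15.5, 19.9 and 24.3 CPM in cerebellum, and at 388, 546 and 852 CPM in liver and 395, 486 and 652 CPM in kidney. Hadh and Acaa2, which act late in each cycle of the pathway, were lower by 29.5-fold and 22.7-fold. Unlike the 10 genes above, these remained present in brain at several CPM or more.

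Of 22 tested peroxisomal genes, 17 were lower in brain and 0 higher, beside 15.2% and 20.8% of all genes tested. The list median was -4.96 log2. Acaa1b, a thiolase, was lower by 972-fold and Ehhadh, the bifunctional enzyme, by 181-fold. Hao2, a hydroxyacid oxidase, lay at 135, 188 and 244 CPM in kidney and 0.449, 2.81 and 6.25 CPM in liver and had 2 counts in brain. Library sizes alone left 16 lower calls.

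Amino acid breakdown was lower in brain for 25 of 28 genes and higher for 0, beside 15.2% and 20.8% of all genes tested. The list median was -7.02 log2. Hgd, of tyrosine breakdown, lay at 437, 611 and 717 CPM in liver and 271, 290.1 and 327 CPM in kidney, and was lower in brain by 2653-fold. Agxt2 and Prodh2, whose promoters are shown above, were lower by 4169.8-fold and at least 536-fold. The 3 genes not called were each high in 1 peripheral organ. Tat and Hal, which act on tyrosine and histidine, had medians of 1133 and 467 CPM in liver but 0.0281 and 0.121 CPM in kidney, while Gatm, of creatine synthesis, had 937 CPM in kidney and 29.1 CPM in liver, less than the 36.3 CPM of forebrain.

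Fructose and polyol handling was lower for 7 of 9 genes, beside 15.2% of all genes tested, with a median of -7.44 log2. Fbp1, Slc2a2 (the glucose transporter GLUT2) and Sord were lower by 5244-fold, 2267-fold and 132-fold. Fbp1, which removes a phosphate from fructose bisphosphate, lay at 614, 1022 and 1194 CPM in liver and 717, 796 and 912 CPM in kidney and at 0.0542 to 0.368 CPM in forebrain and 0 to 0.0609 CPM in cerebellum. Khk, the fructokinase of liver and kidney, had medians between 0.175 and 0.202 CPM in all 4 organs. Such low counts were also seen for Apoa2 (0.947 CPM in liver) and Serpina1c (0 CPM in liver), both known as abundant liver transcripts, and the part of read counting in them was not tested.

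Epithelial junction and polarity genes were lower in brain in 18 of 23 cases and higher in 0. Over all genes tested, 15.2% were lower and 20.8% higher. The list median was -4.64 log2, and library sizes alone left 15 lower calls. Krt8, an epithelial keratin, was lower by 187-fold, Dsp, of desmosomes, by 43.9-fold, and the claudins Cldn3 and Cldn2 by 68.6-fold and 51.7-fold. Cldn2 spanned 0.146, 0.441 and 10.4 CPM in cerebellum, and Krt8 0, 0.122 and 1.59 CPM. Aqp1 and Prlr, 2 choroid plexus genes that liver and kidney also express, were lower by 59.9-fold and 15.2-fold, and they reached 11.2 and 25.6 CPM in cerebellum. The part of choroid plexus tissue in these cerebellum values was not tested. The occluding junction gene Ocln was not called, with a margin of -0.48 log2.

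Some paired relatives divided the organs between them. Pairs were picked to join a gene known for brain with a broader relative, which favours higher calls among the brain partners. Of 23 pairs, 21 brain partners were higher in brain, beside 20.8% of all genes tested, and 10 of the relatives were lower, beside 15.2%. Both held for 9 pairs, the brain partner alone was called for 12, the relative alone for 1, and neither for 1. Glucose transporters show the first case, with Slc2a3 (GLUT3) at 129, 149 and 192 CPM in forebrain and 85.6, 102 and 108 CPM in cerebellum against 2.21, 3.75 and 4.86 CPM in liver and 1.77, 2.44 and 3.26 CPM in kidney. It was higher by 27.6-fold, and Slc2a2 was lower as given above.

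Lipid enzymes were split in the same way. Acsl6, which activates long fatty acids, was higher in brain by 1203-fold and its relative Acsl1 lower by 5.82-fold, at 55.1 to 65.5 CPM in forebrain and 1173 to 2265 CPM in liver. Cpt1c, the brain carnitine palmitoyltransferase, was higher by 20.9-fold, while Cpt1a was lower. Among fatty acid binding proteins, Fabp7 was higher by 2.54-fold and Fabp1 lower by 13.1-fold. Single libraries overlapped between the sides for both, and Fabp1 was called at 3 of the 6 times. It was low in kidney, at 0.0580 to 0.711 CPM with 43 of 89 counts in 1 library, and 5 of its 6 forebrain counts came from CT20 replicate 1, without which its fold was 33.8 (95% counting interval 9.34 to 279).

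Membrane fusion genes also formed such pairs. Beside Snap25, its broad relative Snap23 was lower in brain by 2.77-fold. Vamp2 was higher by 6.55-fold and Vamp8 lower by 3.81-fold. The lower call of Snap23 was lost with library sizes alone. Fold changes of the lower partners were under 4 in both pairs, far smaller than that of Snap25.

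In the second case only the brain partner was called. Eno2, the neuronal enolase, was higher by 378-fold, and Eno1 had a margin of -0.59 log2. Kif5c, a kinesin, was higher by 305-fold, and its relative Kif5b was interleaved. Dnm1, the neuronal dynamin, was higher by 70.4-fold, and Dnm2 had a margin of -0.26 log2. Actl6b, of the neuronal chromatin remodelling complex, was higher by 5019-fold (95% counting interval 901 to 198251), while Actl6a, at a margin of -0.98 log2, fell short of the fold threshold. Without liver CT24 replicate 2, which held its 1 liver count, Actl6b was at least 1519.5-fold higher. In 1 pair only the relative was called, which was lactate dehydrogenase, where Ldhb was interleaved, with a median of 726 CPM in kidney and 2.38 CPM in liver, and Ldha was lower by 3.02-fold.

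**Figure D4:**
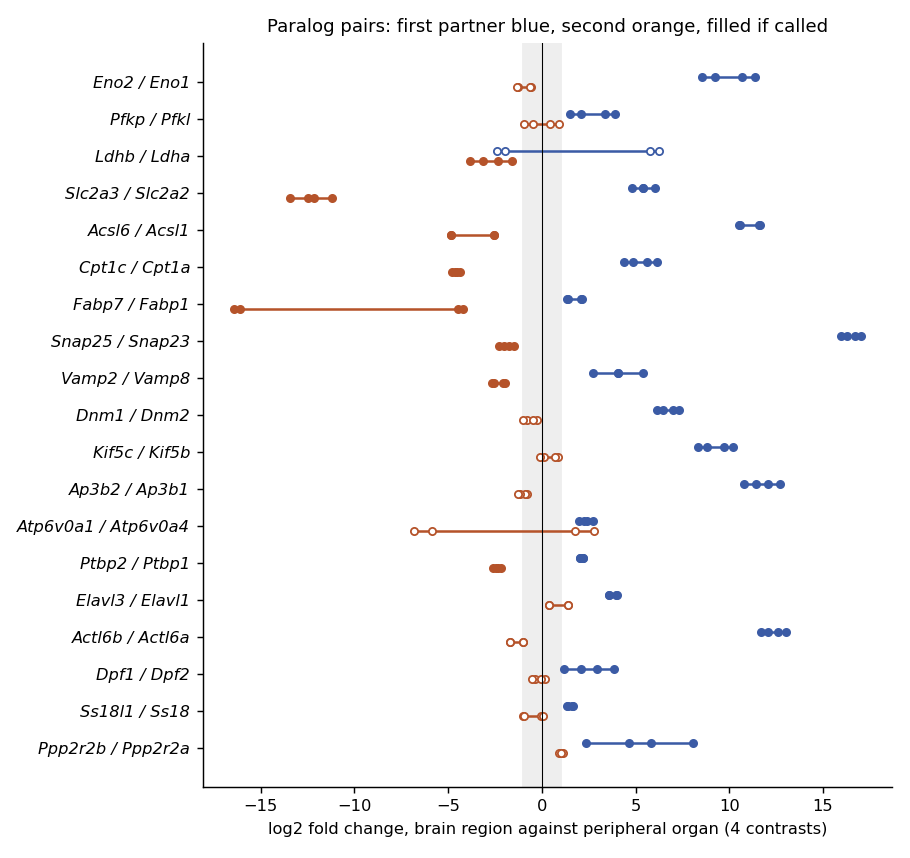
The 4 log2 fold changes of a brain region against a peripheral organ (horizontal axis) for both partners of 19 of the pairs of related genes, with the brain partner in blue and its relative in orange, points joined by a line, and filled where the gene was called. The grey band spans changes of at most 1 in size, and 18 brain partners are filled to its right, and 8 relatives to its left.

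Called genes differed from all genes tested in kind and size, which is given as a description. Protein-coding genes were 49.2% of those higher in brain and 73.5% of those lower, beside 60.1% of all genes tested. Long noncoding genes were 17.9% of those higher and 9.12% of those lower, beside 14.2%. Protein-coding genes spanned a median of 34.3 kb when higher in brain, 18.2 kb when lower and 24.4 kb over all tested. A span over 100 kb was found for 27.3% of those higher, 8.11% of those lower and 14.6% of all. Their median exon length was 4.67 kb, 3.37 kb and 4.20 kb in turn. The X chromosome carried 5.61% of those higher, 2.83% of those lower and 3.53% of all.

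Of 14 long noncoding RNAs fixed by name, 8 were higher in brain and 1 was lower. Over all genes tested, 20.8% were higher and 15.2% lower. The list median was 5.75 log2. Meg3, Rian and Mirg lie next to each other in an imprinted region of chromosome 12, at chr12:109541001-109571726, chr12:109603940-109661716 and chr12:109729764-109749460. They were higher in brain by 385-fold, 154-fold and 142-fold, and Meg3 lay at 587, 1233 and 1591 CPM in forebrain and 626, 811 and 1024 CPM in cerebellum. Snhg14 (chr7:59307924-59975759), the long host transcript of the Prader-Willi region, was higher by 135-fold. Malat1 was interleaved, with medians of 6347 CPM in forebrain, 10382 CPM in cerebellum, 3045 CPM in liver and 7308 CPM in kidney. Neat1 was the lower one, with at most 0.855 CPM in any organ, a level at which the call rests on few counts, and the sleep-deprived libraries did not call it lower.

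The fold threshold divided genes of almost equal margin. Just inside it on the higher side were Zfp420 and Nr2c2, and just outside 2410021H03Rik and Pcmtd2. On the lower side Mfsd6l and Mrpl17 were just inside and Hist2h2ac and Olfml1 just outside. Their margins were 1.0002, 1.001, 0.9997, 0.998, -1.0009, -1.002, -0.9996 and -0.9995 log2 in this order. Nr2c2 had medians of 252 and 272 CPM in forebrain and cerebellum against 103 and 123 CPM in liver and kidney. Mrpl17 had 20.2 and 20.1 CPM against 57.3 and 40.7 CPM.

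The contrast was present at each time of day. At single times, from 4434 to 5045 genes were higher in brain and from 3322 to 3892 were lower. At all 6 times, 3433 genes were higher (12.5% of the genes tested), and all of these were among the calls averaged over time, of which they made up 60.05%. The same held for 2576 genes lower at all 6 times (9.39% of those tested, and 61.7% of the calls). Some calls rested on the average alone, with 389 higher and 194 lower genes passing at no single time, where each organ had 2 libraries or fewer.

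Sleep-deprived libraries, which the choice of genes did not use, gave 5759 genes higher in brain (21.7% of 26500 tested) and 4142 lower (15.6%). Of the control calls that were tested there, 5262 of 5600 higher genes (94.0%) and 3785 of 4083 lower genes (92.7%) were called in the same direction. Read from the other side, 92.1% and 91.6% of the sleep-deprived calls were called in controls. None of the genes called in both conditions changed direction.

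For some genes the size of the gap between brain and periphery depended on the hour. The gap is the mean of forebrain and cerebellum minus the mean of liver and kidney on the log2 scale, and it differed between times for 3288 genes, or 12% of those tested (edgeR quasi-likelihood test over 6 times). With the omitted cerebellum library kept, the number was 1539, and the kidney times are those of the titles. It changed with time for 7.31% of the genes higher in brain and 16.2% of those lower. Over the 3288 genes the median range of the gap was 0.67 log2, 900 genes ranged over more than 1 log2, and 556 had gaps of both signs.

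The 10 genes with the smallest p were Nr1d2, Npas2, Tef, Arntl, Per3, Tubb2a, Cry1, Ppa1, Nampt and Nr1d1. Most belong to the circadian clock, a loop in which ARNTL with CLOCK or NPAS2 activates the period, cryptochrome and REV-ERB genes, whose products act back on it. In all 10 the ratio of the highest to the lowest time mean was larger in both peripheral organs than in both brain regions, with medians of 1.395 in forebrain, 1.69 in cerebellum, 9.15 in liver and 5.20 in kidney. For the clock list this order held in 17 of 18 genes. The share of all genes with this order was not computed, and the 10 were chosen by a gap that changed with time. The gap changed with time for 16 of the 18 clock genes, beside 12% of all genes tested.

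Arntl, the core activator, is an example. Its time means ran from 33.2 to 54.3 CPM in forebrain and 34.1 to 79.6 CPM in cerebellum, and from 5.90 to 64.0 CPM in liver and 3.45 to 46.2 CPM in kidney. At CT16 its 2 liver libraries held 5.66 and 6.14 CPM and its 2 kidney libraries 3.65 and 3.26 CPM, against 28.4 and 37.9 CPM in forebrain. At CT8 the liver libraries held 68.3 and 59.8 CPM and the forebrain libraries 48.4 and 60.2 CPM. Over the 6 times its gap ran from 0.06 to 3.12 log2, lowest at CT4 and highest at CT16 (adjusted p = 3.64e-10).

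Npas2 and Nr1d1 also had wide ranges in liver. The level of Npas2, a partner of ARNTL, fell in liver from 19.3 and 20.3 CPM at CT8 to 0.286 and 0.475 CPM at CT20, while forebrain stayed between 36.2 and 49.2 CPM. Its gap ran from -0.45 to 3.92 log2 (adjusted p = 7.65e-12) and was negative at CT4 and CT8. At both times forebrain still lay above liver and kidney. Only cerebellum, with 5.10 CPM at CT8, lay below them, which made the log2 mean of the brain regions the lower one. Nr1d1, which encodes the repressor REV-ERB alpha, had 6.84 and 4.07 CPM in liver at CT4, 85.6 and 92.8 CPM at CT12 and 113 and 64.8 CPM at CT16, and in forebrain 90.6 and 89.0 CPM at CT4 and 156 and 150.0 CPM at CT16. It was called higher in brain on average but was called at only 3 of the 6 times.

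Outside the clock list were 3 of the 10. Nampt, of NAD synthesis, was lower in brain, with forebrain libraries at 47.5 to 61.2 CPM and liver libraries from 92.4 and 114 CPM at CT12 to 332 and 375 CPM at CT20. Tubb2a, a tubulin, ran in liver from 14.95 and 18.2 CPM at CT16 to 147 and 114 CPM at CT8. Ppa1, an inorganic pyrophosphatase, had time means of 103 to 221 CPM in liver and 32.8 to 43.4 CPM in forebrain.

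**Figure D5:**
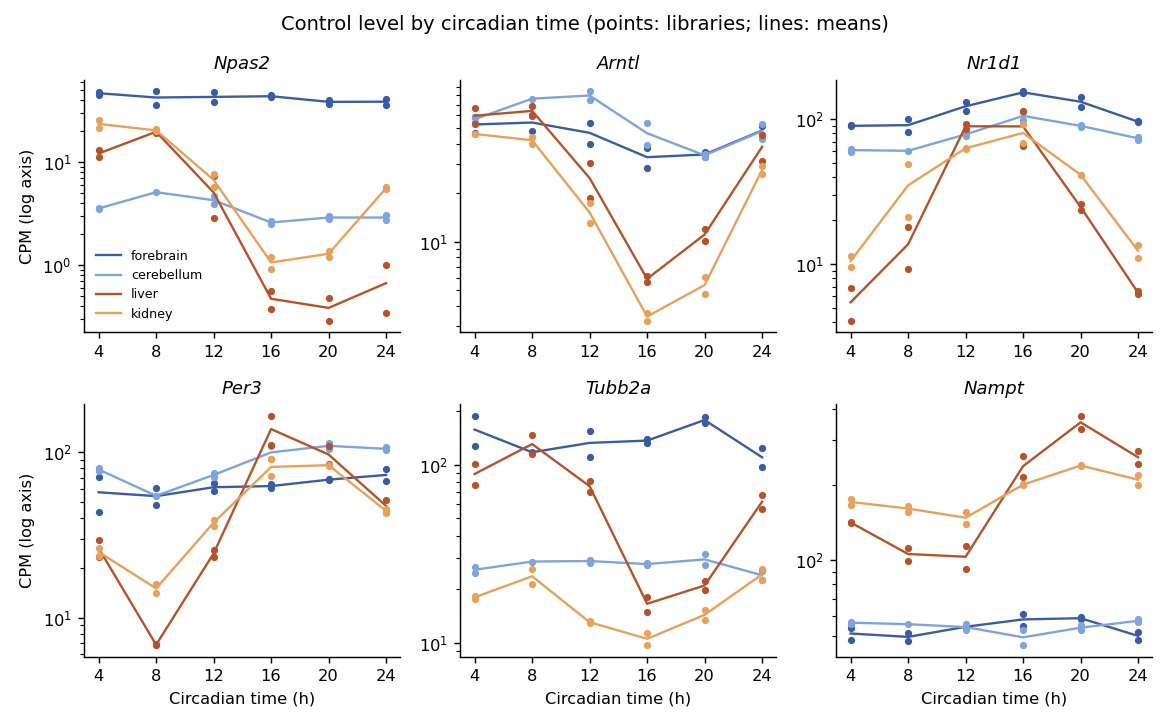
Level at each circadian time (horizontal axis, h) of 6 genes whose gap changed with time (vertical axis, CPM on a log axis that does not start at 0 and differs between panels). Points are single control libraries and lines join the time means of each organ, and the lines of liver and kidney span a wider range than those of forebrain and cerebellum in every panel.

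On average level, 4 of the 18 clock genes tested were higher in brain and 0 lower, beside 20.8% and 15.2% of all genes tested. The 4 were Bhlhe41, Ciart, Nr1d1 and Rora, and library sizes alone gave 6 higher. Bhlhe41, a repressor linked to sleep length, lay at 43.1, 69.2 and 74.2 CPM in forebrain and 67.0, 84.5 and 100.1 CPM in cerebellum, and at 1.33, 2.70 and 8.58 CPM in liver and 3.03, 6.61 and 11.3 CPM in kidney, without overlap. Rora was higher by 2.19-fold, with 2475 CPM in cerebellum as its median. Ciart and Nr1d1 overlapped between the sides.

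Few genes were called for a gap that differed between SD and CON, and genes not called are not shown to be unchanged. The gap differed for 740 of 28219 genes (2.62%), of which 434 had a higher gap in SD (58.6%), and the median absolute difference was 0.32 log2. With library sizes alone, 849 genes differed and 94.3% of them had a higher gap in SD. Among genes higher in brain, 86 differed (1.504%), with the gap wider in SD for 70. Among genes lower in brain, 212 differed (5.07%), with the gap wider for 96 and narrower for 116. The total depended on 1 library, since without liver SD CT16 replicate 1 the number was 1592, with 45.4% higher, and 738 of the 740 were still called. With the omitted cerebellum library kept, 483 genes differed, and kidney conditions are those of the titles.

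The 10 genes with the smallest p all had a gap that rose in SD. In all 10 the mean level was lower in SD than in CON in both liver and kidney. As they were chosen by the difference of the gap, a peripheral fall relative to brain follows in part from the choice. The share of other genes with such a fall was not computed. The kidney levels rest on the sample titles, which the listed treatment goes against in most kidney SD libraries. Ciita, the activator of MHC class II genes, had 25.9 ± 7.503 CPM in CON liver and 12.3 ± 2.44 CPM in SD liver (standard deviation, n = 12 each), and 1.51 ± 0.315 and 1.74 ± 0.225 CPM in forebrain. Its gap rose by 1.14 ± 0.13 log2 (SE, adjusted p = 4.48e-08). Cd74, the invariant chain of MHC class II, had 377 ± 180 CPM in CON kidney and 150 ± 36.1 CPM in SD kidney, and its gap rose by 1.13 ± 0.15 log2 (SE, adjusted p = 4.42e-06). Both remained lower in brain in both conditions. Ccsap and Aim2, the latter a sensor of cytosolic DNA, were higher in brain, and the gap widened by 0.78 ± 0.10 and 0.73 ± 0.10 log2 (SE).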

How the data were processed

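Total RNA had been depleted of ribosomal RNA and made into strand-specific paired-end libraries. Per the labels and the study's methods, reads were trimmed with Trim Galore, aligned to GRCm38 with HISAT2, filtered with SAMtools for a mapping quality of 60 and assigned to genes on the reverse strand by featureCounts. The deposited values are these raw counts for 54833 features, of which 5248 are numbered loci without annotation. Discarding reads that map to several places lowers the counts of near-identical copies. Groups came from sample titles, which for 20 of the 24 kidney libraries conflict with the listed characteristics.

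Counts were normalised by TMM and fitted with edgeR 4.0.16 (quasi-likelihood F-test, filterByExpr, a mean for each organ and time), and p-values were adjusted by Benjamini-Hochberg across every gene tested. The fit was tested on simulated data. Controls were fitted alone (47 libraries), as were SD libraries (48), and both together (95) for the difference between conditions. Positions and symbols came from GENCODE M21, and promoters from RefSeq (GRCm38.p6), where 5136 of 9239 called symbols matched. Folds use counts pooled over the libraries of an organ, and intervals and floors cover counting error only.

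The members, lists and pairs were chosen with earlier results of these data known. The genes named are the 10 with the largest margins in each direction (coding or lncRNA, at least 10 CPM in both organs of the higher side), the 10 with the smallest p in each test of the gap, up to 4 called and 3 uncalled members of each list with any called against its majority, the relatives in pairs, and 2 genes on each side of the fold threshold. Some genes that this rule names are not reported here. Alternatives were other normalisations, filters, models and thresholds, DESeq2 1.42.0, a replicate block, the omitted library, and leaving out each library with limma 3.58.1.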

Additional observations from a re-analysis of the deposited data

Results flagged for a closer look

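The gap between brain and periphery differed between circadian times for 3288 genes and between SD and CON for 740 genes, in tests of these differences themselves.

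Over the 6 times, the gap ranged over 2.28 log2 for Nr1d2, 4.37 for Npas2, 1.64 for Tef, 3.06 for Arntl, 2.85 for Per3, 2.16 for Tubb2a, 2.50 for Cry1, 1.08 for Ppa1, 1.18 for Nampt and 2.91 for Nr1d1. The estimated gap took both signs over the day for Nr1d2, Npas2, Tef, Per3 and Cry1, and it stayed positive for Arntl, Tubb2a and Nr1d1 and negative for Ppa1 and Nampt. In SD libraries tested on their own, the gap changed with time for 992 genes, of which 545 were among those of the controls (16.6% of the control calls and 54.9% of the SD calls).

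Between SD and CON, the gap rose by 1.14 ± 0.13 log2 (SE) for Ciita, 0.56 ± 0.06 for Ncapd2, 0.73 ± 0.08 for Coro1a, 0.61 ± 0.07 for Plek, 0.78 ± 0.10 for Ccsap, 0.74 ± 0.10 for Tcof1, 0.81 ± 0.11 for Hist1h2ak, 1.13 ± 0.15 for Cd74, 0.73 ± 0.10 for Aim2 and 3.30 ± 0.47 for 2610318N02Rik. The last had at most 0.5996 CPM in any control library. In all 10 the mean level was lower in SD than in CON in both liver and kidney, with kidney conditions taken from the titles. As the 10 were chosen by the difference of the gap, a peripheral fall relative to brain follows in part from the choice.

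The cerebellum library that was left out held counts on antisense genes equal to 22.2% of those of their partner genes, against 4.73% to 5.78% in the other cerebellum libraries.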

How the results depend on the processing

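No gene called higher or lower in brain was called in the opposite direction with DESeq2 size factors, library sizes alone, no filter on low counts, DESeq2, tissue and time as additive terms, the replicate block or (controls only) the omitted library kept. Of the counts of genes, 381 alternatives stayed within 1.5 times the reported value and 16 did not. These 16 follow. Genes lower in brain numbered 6798 by adjusted p alone and 2305 above 2 log2, in SD libraries 6867 and 2232, and at all 6 times 3916 and 1391. The gap changed with time for 5780 genes with DESeq2 and for 1539 with the omitted cerebellum library kept. The gap differed between SD and CON for 1324 genes with DESeq2, 483 with that library kept and 1592 without liver SD CT16 replicate 1, an alternative chosen after seeing the data. The causes were not tested.

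Leaving out each library in turn with limma, also chosen after seeing the data, gave 5209 to 5268 genes higher and 3870 to 3910 lower, in SD libraries 5242 to 5338 and 3831 to 3895, 2692 to 4067 with a gap that changed with time and 747 to 1924 with a gap that differed between SD and CON. With all libraries that fit gave 966 for the last, and without liver CON CT8 replicate 1 it gave 1125, without liver CON CT24 replicate 1 1193, without liver SD CT16 replicate 1 1924, without liver SD CT24 replicate 1 1129 and without kidney SD CT20 replicate 1 1192. Cerebellum CT8 replicate 2 stands alone in its group and could not be left out.

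With the replicate number as a block, 5700 genes were higher and 4162 lower (SD libraries 5753 and 4141), 3353 and 2570 at all 6 times, and 3128 and 812 had gaps that changed with time or differed between SD and CON. The deviations of same-numbered libraries of 2 organs correlated from -0.03 to 0.09 in controls (0 of 33 over 0.1) and from -0.05 to 0.22 in SD libraries (2 of 36 over 0.1). The labels do not say whether such libraries came from the same mouse, and these values do not settle it. Folds without 1 library were added after seeing the data. Few peripheral or brain counts limit the folds of genes near 0, and the size of a margin there depends on the prior count of the fit.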

Other observations

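Brain libraries also held traces of the 10 genes with the largest margins lower in brain. Forebrain CT20 replicate 1 held 22 of their 50 forebrain counts, and cerebellum CT4 replicate 2 held 9 of their 17 cerebellum counts. For the genes higher in brain, kidney libraries held 43 counts in all, at most 8 in 1 library.

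Among genes called higher in brain, 494 had no count in any liver or kidney library, and among those called lower 89 had no count in any brain library. Unverified transcribed loci, which GENCODE classes as TEC, made up 10.6% of the genes higher in brain, 1.65% of those lower and 5.62% of all tested.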
